A study of Mus musculus with 8 samples.

Results

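Carbonic anhydrases interconvert carbon dioxide and bicarbonate with a proton, and so link respiration, pH control and bicarbonate supply. Paralogues differ in where they work, in the cytosol, in mitochondria or at the outer face of the plasma membrane, and a few have lost catalysis. Car3 is the cytosolic form with weak hydration activity, known for its abundance in slow skeletal muscle fibres, fat and liver. The genes described are Car3 and 8 paralogues, Car2, Car4, Car5b, Car8, Car9, Car12, Car13 and Car14, found as the non-control probes that carry their names on the array. They came to 9 of 27109 genes tested and 11 of 55681 non-control probes. Car3 was chosen for its high signal with Hoxa9 in the comparison given below, so the values of these 9 genes in that comparison are a description and carry no p-value.

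Satellite cells, the stem cells of skeletal muscle, were taken from hindlimbs of C57BL/6J mice aged 3 to 4 months and kept overnight in culture. A lentivirus then integrated either Hoxa9 cDNA with eGFP cDNA, the Hoxa9 group, or eGFP cDNA alone, the eGFP group. In both groups eGFP-positive cells were sorted 5 days after transduction, so all samples carry an integrated virus and eGFP. Each group had 4 one-colour Agilent arrays, numbered 1 to 4, and the labels do not say whether the samples came from separate animals or name the promoter of the virus.

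Each array held 62976 spots, 3671 of them controls, and 69.64% to 77.52% of the others were well above background, the scanner software's test of a spot against its surround. No spot was saturated. With 4 arrays per group, it is their number that sets the precision. Levels are log2 signals relative to the array's 75th percentile, so a level of 0 is that percentile, and differences are Hoxa9 minus eGFP. Levels of different probes are not compared, since probes differ in brightness for equal RNA. The Hoxa9 probe with the highest signal averaged 5.51 with Hoxa9 and -0.47 with eGFP, and the other Hoxa9 probe averaged -3.43 and -1.69. Of 12 satellite cell and myoblast markers 11 were measured, Pax7 and Myod1 among them on all 8 arrays. Calcr was not well above background on any array. By the limma fit 2 of these markers rose and 5 fell, with a median difference of -0.67. Over the alternatives 1 or 2 rose and 2 to 5 fell, and Cdh15 lost its call in 14 of 19 and Myf5 in 6. Chrdl2 rose by 3.16 and Ncam1 by 1.09, while Vcam1 fell by 2.59 and Pax7 by 1.30 (limma adjusted p = 0.000543, 0.00262, 0.0001102 and 0.004007 in that order). Chrdl2 was dim with eGFP, where 1 array was well above background, and was kept through its 4 Hoxa9 arrays. Its difference was 1.10 with normexp, a background correction that lifts dim signals.

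The probes are 60 bases long, and their last 30 bases are printed for the 3 members that lie together on chromosome 3, since these neighbours gave opposite differences, and for both Car4 probes, since their values differed. Runs of at least 5 A are in capitals. Positions are mm9, on the plus strand, chr3:14662362-14662391 for Car13, chr3:14871811-14871840 for Car3, chr3:14900236-14900265 for Car2, chr11:84779517-84779546 for the Car4 probe starting at transcript base 1230 and chr11:84777697-84777726 for the Car4 probe starting at base 470.
Car13: cacccattAAAAAgatgaaccacgtcttgc
Car3: ctcacccagaagcatgaatttcacacctaa
Car2: gtgaaaagcaagacccaggtgtctcatgtg
Car4, base 1230: aaataaaatatggatatgtttttagAAAAA
Car4, base 470: acggttcagagcacagtattgatgggagac
None of these 5 probes shared a run of 16 bases with the probe of another gene on the array, searched on both strands. The array files give each probe's place in its transcript but not whether it is coding or untranslated.

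The differences of the 9 genes went in both directions. The fit called 3 of them, Car3 and Car5b higher and Car13 lower, and calls were made for 15.2% of all genes, 7.83% higher and 7.42% lower. The 4 arrays of one group lay wholly outside those of the other for 4 members, Car3 and Car5b above and Car9 and Car13 below. Such separation was found for 23.6% of all genes, 11.1% higher and 12.5% lower. A difference above 0 was found for 5 of the 9 members, and for 44.3% of all genes. The median difference of the members was 0.43, or 0.17 with Car3 left out, and that of all genes was -0.073. Since the members were picked with this comparison in view, nothing about the family is read from these counts. In RNA pooled from the sorted eGFP-positive cells, fewer cells of a type and less RNA per cell cannot be told apart.

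**Figure D1:**
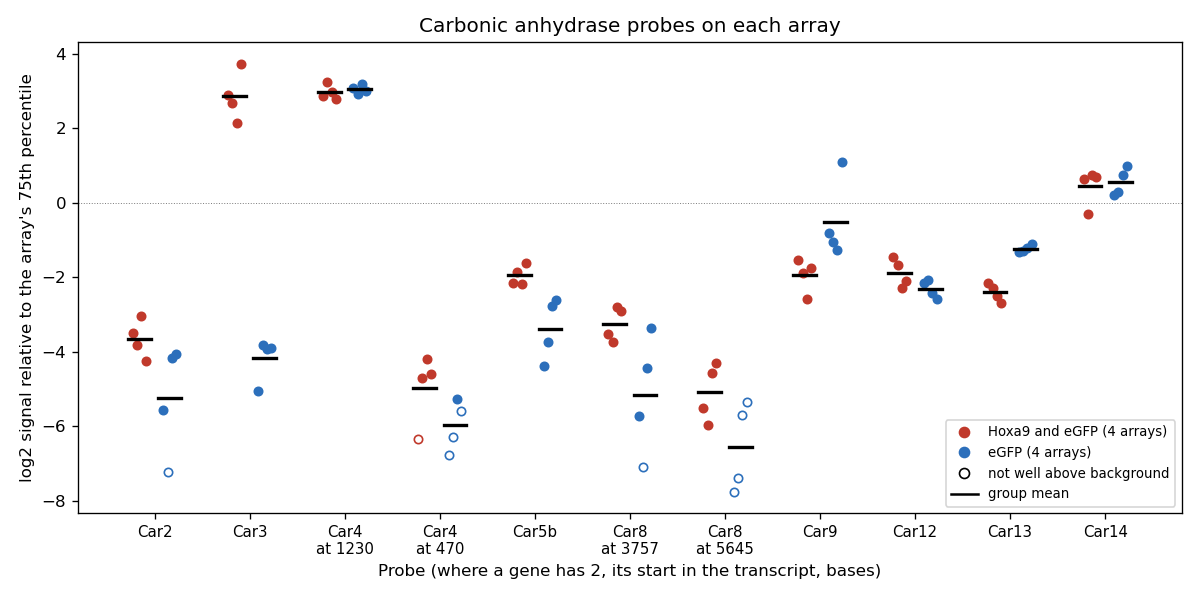
Log2 signal relative to the array's 75th percentile (vertical axis) of the 11 probes of the 9 genes (horizontal axis), with the 4 Hoxa9 arrays left of the 4 eGFP arrays for each probe, bars at the group means, and open circles where a spot was not well above background. The Car3 groups stand apart at means of 2.87 and -4.17, the brighter Car4 probe is level at 2.97 and 3.06, and Car13 is lower with Hoxa9 at -2.40 and -1.23.

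Among the cytosolic enzymes, Car3 had levels of 2.91, 2.69, 2.15 and 3.74 on the 4 Hoxa9 arrays, and of -5.05, -3.81, -3.92 and -3.90 on the 4 eGFP arrays. Every Hoxa9 array was above the array's 75th percentile and every eGFP array was far below it, with no overlap. The means were 2.87 ± 0.66 with Hoxa9 and -4.17 ± 0.59 with eGFP (SD, n = 4 each), a difference of 7.04 (SE 0.39) or 131.8-fold. The Car3 probe was well above background on all 8 arrays, so signal was measured on both sides. Before scaling, that signal was low with eGFP, 19.9 to 48.0 units, against 2523 to 6354 with Hoxa9. The size of the fold therefore depends on the background correction. By size of difference Car3 ranked 4 of 27109 genes.

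The arrays lay on 3 slides that each held both groups. Slide 1 held eGFP replicates 1 and 2 with Hoxa9 replicate 4. Slide 2 held eGFP replicate 3 with Hoxa9 replicates 1 and 2, and slide 3 held eGFP replicate 4 with Hoxa9 replicate 3. The Car3 difference was 8.17, 6.72 and 6.05 within slides 1, 2 and 3. Between arrays of the same number it was 7.96, 6.50, 6.07 and 7.63 for numbers 1 to 4. The value was thus large in each slide and pair. With normexp, a background correction that lifts dim signals, it was 5.40.

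Car13, another cytosolic enzyme, had levels of -2.15, -2.28, -2.50 and -2.69 with Hoxa9 and of -1.32, -1.30, -1.21 and -1.11 with eGFP. All Hoxa9 arrays were below all eGFP arrays. The means were -2.40 ± 0.24 with Hoxa9 and -1.23 ± 0.10 with eGFP (SD, n = 4 each), a difference of -1.17 (SE 0.16), or 2.25-fold lower. Within slides the difference was -1.38, -1.01 and -1.39, and it ran from -1.25 to -0.92 over the alternatives tried.

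Car2, the highly active cytosolic enzyme, had levels of -3.50, -3.81, -3.02 and -4.26 with Hoxa9 and of -5.57, -7.21, -4.17 and -4.05 with eGFP. The groups overlapped, since 1 Hoxa9 array was below 2 eGFP arrays. The difference of 1.60 (SE 0.68) was not called, and its lowest point, eGFP replicate 2, was not well above background. Without that array the difference was 0.95, with normexp 0.49, and within slides 2.13, 0.51 and 1.02.

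Car5b, a mitochondrial enzyme known to supply bicarbonate to carboxylases, had levels of -2.16, -1.84, -2.17 and -1.62 with Hoxa9 and of -4.39, -3.73, -2.77 and -2.60 with eGFP. Each Hoxa9 array was above each eGFP array, while the eGFP arrays fell into a low pair, replicates 1 and 2, and a higher pair, replicates 3 and 4. The difference was 1.43 (SE 0.39), 2.69-fold, with 2.44, 0.77 and 0.43 within slides 1, 2 and 3. It was called in the fit given here. The call was lost with the slide as a block (1.29), with no filter on dim probes (1.43), and without eGFP replicate 1 (1.09) or 2 (1.31) or any single Hoxa9 array (1.32 to 1.50), and with normexp the difference was 0.80.

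Car4, held at the cell surface by a lipid anchor, was measured by probes that gave different answers. The probe at base 1230 had levels of 2.87, 3.24, 2.99 and 2.79 with Hoxa9 and of 3.1, 2.93, 3.20 and 3.01 with eGFP. These ranges overlapped almost wholly, and the difference was -0.087 (SE 0.15). The probe at base 470 had levels of -6.34, -4.71, -4.18 and -4.59 with Hoxa9 and of -6.76, -6.28, -5.26 and -5.59 with eGFP, a difference of 1.02 (SE 0.51). Its spot stood well above background for 3 Hoxa9 arrays and 1 eGFP array, and its groups overlapped through Hoxa9 replicate 1. The direction for Car4 therefore changed with the probe taken.

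Car9, a membrane enzyme known as a target of hypoxia-inducible factor, had levels of -1.53, -1.87, -2.59 and -1.74 with Hoxa9 and of -0.81, -1.04, -1.27 and 1.10 with eGFP. The groups did not overlap, and eGFP replicate 4 was far above the other eGFP arrays. The difference of -1.43 (SE 0.51) was not called. Without eGFP replicate 4 it was -0.89, and within slides -0.81, -0.43 and -3.69, the last being the slide of that array.

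Car12 and Car14 are membrane enzymes whose active sites face outward. Car12 had levels of -1.45, -1.67, -2.27 and -2.10 with Hoxa9 and of -2.14, -2.08, -2.42 and -2.59 with eGFP. The groups overlapped, and the difference of 0.43 (SE 0.22) was not called and was 0.0066, 0.86 and 0.32 within slides. Car14 had levels of 0.65, -0.30, 0.74 and 0.69 with Hoxa9 and of 0.22, 0.30, 0.75 and 0.99 with eGFP. It had the lowest of its 8 levels on Hoxa9 replicate 2 and the highest on eGFP replicate 4. Its difference was -0.12 (SE 0.29), and it turned to 0.13 without Hoxa9 replicate 2 and to 0.026 without eGFP replicate 4.

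Car8, a related protein with no carbonic anhydrase activity that binds the inositol trisphosphate receptor, also had a pair of probes. The brighter one had levels of -3.52, -3.73, -2.80 and -2.89 with Hoxa9 and of -5.71, -7.09, -4.44 and -3.36 with eGFP. The groups overlapped at eGFP replicate 4, and eGFP replicate 2 was not well above background. The difference was 1.91 (SE 0.72), not called, with 3.51, 0.81 and 0.55 within slides. It was 0.67 with normexp and 1.26 without eGFP replicate 2, and it was called without eGFP replicate 4, at 2.51.

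The dimmer Car8 probe exceeded background clearly on 4 Hoxa9 arrays but on 0 eGFP arrays. Its measured means were -5.08 ± 0.79 with Hoxa9 and -6.55 ± 1.20 with eGFP (SD, n = 4 each). Taken against the lowest signal well above background on each eGFP array, or the probe's own where higher, it was at least 1.87-fold higher with Hoxa9. Some probes above that lowest signal were not well above background, so the bound may be too large. Both Car8 probes were 71.7% A and T, a higher share than in 98.4% of the array's probes. Among the members' probes, the brighter Car8 probe and that of Car12 each shared a run of 16 bases with 1 probe of another gene, and the others with none.

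**Figure D2:**
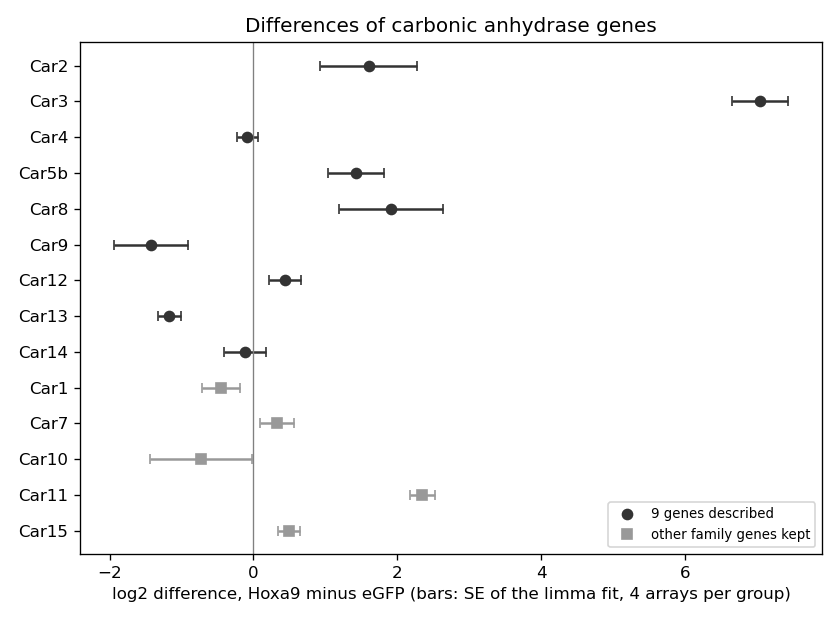
Log2 difference, Hoxa9 minus eGFP (horizontal axis), of the 9 genes (circles) and the 5 other family genes kept (squares), with bars for the SE of the limma fit on 4 arrays per group. Car3 lies at 7.04, Car11 follows at 2.35, and Car9 and Car13 lie below 0 at -1.43 and -1.17.

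On the eGFP arrays, replicates 1 and 2 both lay below replicates 3 and 4 for 5 of the 9 members, Car2, Car5b, Car8, Car13 and Car14, and for 3 of 5 other family genes measured, Car1, Car10 and Car11. The share of all genes with this order was not counted, so nothing about the family is read from it. With Hoxa9 the order was kept by Car8, Car14, Car1 and Car10, absent for Car2, Car5b and Car11, and reversed for Car13. The mean level of 9 of 10 fibroblast markers, Dpt being well above background on 0 arrays, was -0.42, -0.22, 1.04 and 0.91 on the Hoxa9 arrays and -0.60, -0.67, 0.48 and 0.33 on the eGFP arrays. That of 13 slow fibre genes was 1.80, 1.74, 2.73 and 2.79 with Hoxa9 and 1.05, 0.95, 1.84 and 2.22 with eGFP. Both means were thus lower in replicates 1 and 2 than in replicates 3 and 4 of each group. Within eGFP, replicates 1 and 2 were also the arrays of slide 1, so slide and replicate cannot be told apart there. The part of these means and of slide in the values of these 8 genes was not tested.

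Car11, a secreted relative without catalytic activity, was the 1 called gene among the 5 measured of 7 further family genes. It averaged -1.60 ± 0.025 with Hoxa9 and -3.95 ± 0.33 with eGFP (SD, n = 4 each), a difference of 2.35 (SE 0.18, limma adjusted p = 0.0001284). With normexp its difference was 1.40. Car15, anchored in the membrane by a lipid, averaged 0.041 with Hoxa9 and -0.45 with eGFP, a difference of 0.49 (SE 0.16) that did not pass (limma adjusted p = 0.07333). It did pass with normexp, at 0.51 (limma adjusted p = 0.02208).

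The cytosolic enzyme Car1, abundant in red cells, gave -0.45 (SE 0.27, limma adjusted p = 0.3271). Cytosolic Car7 gave 0.33 (SE 0.24, limma adjusted p = 0.4107). Car10, also without catalytic activity, gave -0.73 (SE 0.71, limma adjusted p = 0.5317) and had an SD of 1.52 among the Hoxa9 arrays. These 3 did not pass, and Car10 turned to 0.021 without Hoxa9 replicate 2. Car5a and Car6 were well above background on 0 of 8 arrays and were not tested.

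Car3 lies in a group of paralogues on chromosome 3. The neighbours within 500 kb of the Car3 probe in mm9 were looked up after values had been seen. In that window 9 names were tested, of which 1 was called higher, Car3 itself, and 2 were called lower, Car13 and Rbis, a ribosome biogenesis factor. The Car2 probe starts 28.4 kb after that of Car3, and the Car1 and Car13 probes start 104.3 kb and 209.4 kb before it. Among the family genes there, the difference of 7.04 for Car3 thus stood between -0.45 for Car1 and 1.60 for Car2. A tested probe without a gene symbol lies between those of Car1 and Car3, 69.55 kb before the latter. Its difference was 0.031 (SE 0.15, limma adjusted p = 0.9126).

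Rbis averaged 5.10 with Hoxa9 and 5.60 with eGFP, a difference of -0.50 (SE 0.14, limma adjusted p = 0.04062). Its call was lost in 13 of 19 alternatives, with adjusted p from 0.01462 to 0.139 over all 19. E2f5, a cell cycle transcription factor beside it, had a difference of 0.065 (SE 0.15, limma adjusted p = 0.808), which turned to -0.078 with normexp. Lrrcc1, a centrosome gene, had a difference of -0.27 (SE 0.14, limma adjusted p = 0.245). On the far side of Car2 no gene with a symbol passed the filter on dim probes.

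**Figure D3:**
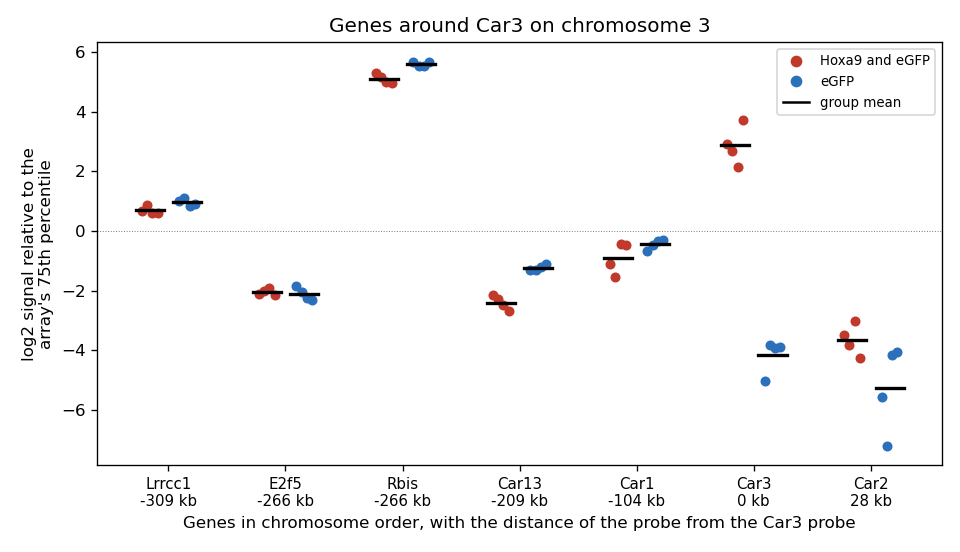
Log2 signal relative to the array's 75th percentile (vertical axis) of the tested genes with a symbol within 500 kb of the Car3 probe, in chromosome order with the distance of each probe from that of Car3, with 4 Hoxa9 arrays left of 4 eGFP arrays and bars at the means. Car3 is the gene whose groups lie far apart, at 2.87 and -4.17, while the groups of E2f5 overlap at -2.05 and -2.11.

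The 5 genes whose profile over the 8 arrays was nearest to that of Car3 were found by the root mean square distance between profiles centred on their own means. They were Aox3 at a distance of 0.33, an aldehyde oxidase, Gcg at 0.36, the precursor of glucagon, Elapor2 at 0.67, Hoxa9 itself at 0.68 and Mtmr7 at 0.68, a lipid phosphatase. A small distance needs a difference of similar size, so these genes were selected by the same comparison and are given without p-values. Aox3 had levels of -1.19, -1.20, -1.11 and -0.29 with Hoxa9, and of -8.19, -7.61, -7.37 and -7.65 with eGFP, where no array was well above background. Gcg had levels of -0.71, -0.53, -0.16 and 0.83 with Hoxa9, and of -7.85, -6.96, -6.72 and -6.89 with eGFP, again not well above background.

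Car3, Aox3, Gcg, Elapor2 and Hoxa9 itself each had their highest level on Hoxa9 replicate 4, and Mtmr7 on Hoxa9 replicate 1. As bounds of the kind used for Car8, Aox3 was at least 41.2-fold and Gcg at least 71.9-fold higher with Hoxa9. With normexp the log2 differences were 2.53 for Aox3 and 3.17 for Gcg, smaller than these bounds, which thus depend on the background correction. Elapor2 averaged 1.44 with Hoxa9 and -5.06 with eGFP, where 2 arrays were well above background. Mtmr7 averaged 2.31 with Hoxa9 and -4.45 with eGFP and was well above background on all 8 arrays, as Car3 was.

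**Figure D4:**
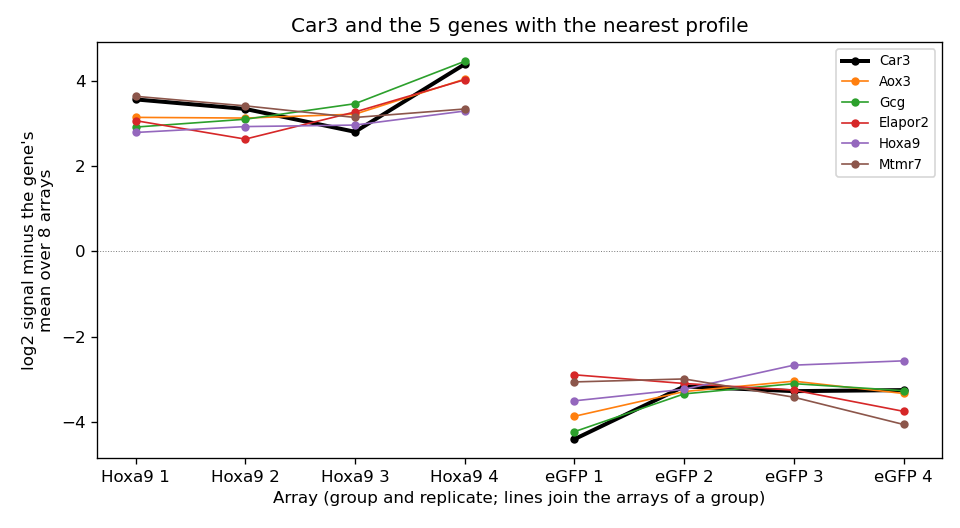
Log2 signal minus the gene's own mean over 8 arrays (vertical axis) of Car3 (black) and the 5 genes with the nearest profile, on the 4 Hoxa9 and the 4 eGFP arrays (horizontal axis). All 6 lie above 0 on the Hoxa9 arrays and below 0 on the eGFP arrays, and Car3 is lowest on eGFP replicate 1.

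Carbonic anhydrases work beside carriers that move bicarbonate, protons and lactate. Of 29 such genes 27 were measured, 6 rose and 3 fell by the limma fit, and the median difference was 0.16, against -0.073 for all genes. Slc4a11, a membrane transporter of the bicarbonate carrier family, averaged 3.17 ± 0.20 with Hoxa9 and 0.19 ± 0.21 with eGFP (SD, n = 4 each), a difference of 2.98 (limma adjusted p = 4.098e-05). Slc9a7, a sodium-proton exchanger of the Golgi network, rose by 2.36 (limma adjusted p = 0.000102). Slc26a11, an anion transporter, rose by 1.20 (limma adjusted p = 0.001565). Aqp1, a water channel, averaged -1.14 ± 0.25 with Hoxa9 and 2.18 ± 0.64 with eGFP (SD, n = 4 each) and fell by 3.32 (limma adjusted p = 0.0003427).

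Carboxylases, which Car5b is known to supply in mitochondria, fix bicarbonate onto their substrates. Of 10 names of such enzymes listed 9 were measured, and Pcx, the pyruvate carboxylase gene, alone was called. It averaged 1.91 ± 0.22 with Hoxa9 and 0.39 ± 0.24 with eGFP (SD, n = 4 each), a difference of 1.51 (limma adjusted p = 0.0009499). The list's median difference was 0.31. Over the alternatives 1 to 3 of its genes were called higher and 0 or 1 lower.

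Car9 was set beside 22 hypoxia-inducible genes, of which 20 were measured. Ndrg1, a stress-response gene, rose by 1.29 (limma adjusted p = 0.004978). Pdk1, a kinase that inhibits pyruvate dehydrogenase, fell by 0.86 (limma adjusted p = 0.02025). The other 18 measured genes did not pass, and the list's median difference was -0.11. Counts over the alternatives were 1 or 2 higher and 0 or 1 lower.

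Slow fibres and fat are tissues where Car3 is abundant, and their markers were set beside it. All 13 slow fibre genes were measured, 3 rose and 1 fell, and the median difference was 0.21. Myl2, a slow and cardiac myosin light chain, averaged 1.10 ± 1.29 with Hoxa9 and -2.81 ± 0.86 with eGFP (SD, n = 4 each), a difference of 3.91 (limma adjusted p = 0.005502). Pln, the inhibitor of the calcium pump and also among the 3 that rose, had no eGFP array well above background. It passed the filter on dim probes through its Hoxa9 arrays alone and is given without a p-value. As a bound of the kind used for Car8, it was at least 6.14-fold higher with Hoxa9. With normexp its difference was 0.76, less than that bound, which thus depends on the background correction. Tnnc1, slow troponin C, differed by 1.80 (limma adjusted p = 0.04402) and lost its call in several alternatives, and Tpm3, a slow tropomyosin, fell by 0.65 (limma adjusted p = 0.04485), a call that most alternatives did not keep. Myh7, the slow myosin heavy chain, had a difference of -0.81 and did not pass (limma adjusted p = 0.3926).

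Of 13 adipocyte markers 10 were measured, 3 rose and 0 fell by limma, with a median difference of 0.27. Fabp4, a fatty acid carrier, averaged -0.075 ± 0.42 with Hoxa9 and -3.57 ± 1.19 with eGFP (SD, n = 4 each), a difference of 3.50 (limma adjusted p = 0.003608). Cebpa, a transcription factor of fat cell differentiation, rose by 1.70 (limma adjusted p = 0.004638), and Plin4, a lipid droplet coat protein, by 1.31 (limma adjusted p = 0.005341). Adipoq, which defines mature adipocytes, stood well above background on 2 arrays of each group and gave -0.22 (limma adjusted p = 0.7422). Cfd, Pck1 and Plin1 did not pass the filter on dim probes, and Pparg, the regulator of fat cell formation, gave -0.22 (limma adjusted p = 0.3576). The mean level of the 10 measured was -2.31 to -1.91 with Hoxa9 and -3.07 to -2.58 with eGFP. Its part in the Car3 values was not tested.

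Among markers of other cells the culture could hold, Ly6a alone rose of 9 measured fibroblast markers, by 4.55 (limma adjusted p = 0.0005626). The fibroblast genes Pdgfra, at -0.63, and Dcn, at 0.13, did not pass (limma adjusted p = 0.2202 and 0.9309). Esam rose alone of 5 endothelial markers, by 1.57 (limma adjusted p = 0.001148), 0 fell, and the list's median difference was -0.17. The Esam probe was dim, well above background on 4 Hoxa9 arrays but on only 2 eGFP arrays. With normexp the Esam difference was 0.45. Laptm5 fell alone of 6 blood markers, by 3.49 (limma adjusted p = 9.282e-05), and Ptprc did not pass the filter. The macrophage markers Itgam, Csf1r and Cd68 were well above background on all 8 arrays. Their differences of -0.024, 0.028 and -0.26 did not pass (limma adjusted p = 0.9496, 0.9527 and 0.6394). Of 8 smooth muscle markers Cnn1 rose by 2.57 (limma adjusted p = 0.004039) and Acta2 fell by 1.32 (limma adjusted p = 0.02364).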

How the data were processed

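Intensity came from 8 scanner files as deposited by the authors, 1 per one-colour array. Agilent Feature Extraction 10.7.3.1 had corrected each array's background without scaling the arrays to each other, per the file headers and, for the version, per the submitters' processing notes. The authors' deposited value table, treated as a score because most of its cells lack a decimal point, matched the log2 scanner signal plus a constant per array within 0.05 for 100% of probes once the points were put back, so its scale is log2 and it is not centred by gene. Its column medians were -3.25, -3.27, -3.23 and -2.96 for Hoxa9 arrays and -3.38, -3.24, -3.12 and -3.09 for eGFP arrays. The origin of the constants is not stated, and the table served as an alternative only. With it 2117 genes were called higher and 2013 lower, against 2123 and 2011 in the main fit. It thus nearly repeats the scaling used here and adds little as an alternative.

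Log2 signals had each array's 75th percentile subtracted (514 to 779 signal units). Control spots and marked spots were left out, which removed 180 probes. A probe was kept where at least 4 of 8 arrays were well above background (40771 probes), and a gene was its kept probe of highest mean, giving 27109 genes. RefSeq accessions updated the names of 1711 of 27656 matched probes. The group difference was fitted with limma 3.58.1 (R 4.3.3) with no other term, two-sided, and p-values were adjusted by Benjamini-Hochberg over the 27109 genes and called under 0.05. The fit was tested on simulated data. Since no label names separate cultures or animals, p-values may reflect technical spread only. SE values come from the limma fit, over genes for a gene and over probes for a second probe.

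The members and lists were chosen with earlier results of these data known. Named genes are every member and probe, Hoxa9, the 5 genes nearest to Car3, the kept family genes and, per list, up to 4 called genes of lowest adjusted p. Chromosome neighbours, and Myh7, Adipoq, Pparg, Pdgfra, Dcn, Myod1, Itgam, Csf1r, Cd68 and genes named as not measured, were added after values were seen. Replicate numbers are shared by the groups through the experiment number in the titles. Deviations from group means correlated at 0.143, 0.228, 0.129 and 0.186 in same-numbered pairs, all over 0.1, so the numbers were taken to pair samples. Yet Hoxa9 replicate 3 with eGFP replicate 4 (0.188) and Hoxa9 replicate 4 with eGFP replicate 3 (0.137) exceeded 0.1 too. The main fit left this pairing out, and the replicate block is the paired alternative. Alternatives were quantile and median scaling, normexp (offset 50), a stricter or no filter on dim probes, the authors' table, averaging a gene's probes, slide and replicate blocks, an intensity trend, array weights, and leaving out each array.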

Additional observations from a re-analysis of the deposited data

Results flagged for a closer look

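Of 114 sets of 4 arrays tested for 1 array far from the rest, a gap that chance gives in about 1 in 20 sets, 6 held such an array. Car3 was -5.05 on eGFP replicate 1, and the nearest eGFP array was at -3.92. Without that array the Car3 difference was 6.75. Car14 was -0.30 on Hoxa9 replicate 2, and the nearest Hoxa9 array was at 0.65. Aox3 was -0.29 on Hoxa9 replicate 4, and the nearest was at -1.11. Slc9a7 was 0.98 on Hoxa9 replicate 2, nearest 0.69, and -1.25 on eGFP replicate 3, nearest -1.71. Cnn1 was 1.17 on Hoxa9 replicate 3, and the nearest was at -0.54.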

How the results depend on the processing

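Car3 was called higher and Car13 lower in all 19 alternatives tried, with differences of 5.40 to 7.28 and of -1.25 to -0.92. All 19 reuse arrays of the comparison by which Car3 was chosen. They describe the dependence on processing and are no further evidence for these differences. Within slides the Car3 difference was 6.05 to 8.17. The count of members called higher was 1 in place of 2 with no filter on dim probes and with the slide as a block, and 1 to 3 when single arrays were left out. The lost call was that of Car5b, and the third was Car8. With the replicate block, the paired fit, 2 members were called higher and 1 lower, as without it, and 2303 of all genes were called higher and 2135 lower. The calls it ended include those of Myf5, Tpm3 and Rbis. Leaving out single arrays gave 7 to 11 genes of the lists called lower, and 1293 to 1889 of all genes lower, the lowest without eGFP replicate 2. Directions turned for Car4, to 0.46 with the mean of its probes and 1.02 with its other probe, and for Car14, to 0.11 with array weights, 0.026 without eGFP replicate 4 and 0.13 without Hoxa9 replicate 2 (lowest -0.23 with single arrays left out). E2f5 turned to -0.078 with normexp and ran from -0.0070 (without eGFP replicate 4) to 0.16 with single arrays left out, and Car10 from -1.07 to 0.021 (without Hoxa9 replicate 2). The cause was not tested. For dim probes (Car2, Car8, the second Car4 probe), and for Car3 on the eGFP arrays, signal near background limits what can be measured.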
